A study of Mus musculus with 2 samples.

Results

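The circadian clock genes described here are 10 genes listed by name: the repressor genes Per1, Per2, Per3, Cry1 and Cry2, the activator gene Arntl, the nuclear receptor genes Nr1d1 and Nr1d2, the output gene Dbp and the repressor gene Ciart. They were taken from 55536 annotated genes by symbol and identifier. Total RNA of the left cerebral cortex was sequenced in 2 libraries, biological replicates 2 and 1, from female B6CASTF1/J mice aged 2 months, which are first-generation hybrids of C57BL/6J and CAST/EiJ. The tissue samples carry separate numbers in the labels but a single donor entry, so the differences given here may hold technical as well as biological spread. Both libraries belong to 1 group with no treatment, mutation or transgene, the labels give no time of day of collection, and no comparison between conditions was possible.

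The mammalian clock is a feedback loop of transcription. A heterodimer of CLOCK, or its relative NPAS2, with BMAL1, the product of Arntl, binds E-boxes and switches on the Per and Cry genes, whose proteins return to the nucleus and repress that heterodimer. A second loop runs through the REV-ERB receptors, products of Nr1d1 and Nr1d2, which repress Arntl, and clock output is passed on by factors such as DBP, which binds D-boxes. The suprachiasmatic nucleus of the hypothalamus paces the body, and cortical neurons and glia carry clocks of their own, so the levels of most of these genes depend on the hour at which a tissue is taken.

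The replicates held 32292150 and 31196858 expected counts (replicate 2 and replicate 1), of which ERCC spike-in RNAs took 0.363% and 0.372%. Levels are given in TPM, transcript abundance corrected for length and scaled to a fixed sum per library, from the tables made from alignments to the transcriptome, here called alignment-based. A second set of tables, made from the reads without those alignments, is called read-based, and its TPM are on a different scale. At the depth of these libraries, 3 counts on 1 kb of effective length gave an alignment-based value of 0.137 TPM (replicate 2) or 0.147 TPM (replicate 1). The labelled tissue was checked against its defining genes: the vesicular glutamate transporter Slc17a7 had 537 and 562 TPM, and the GABA-synthesising enzyme Gad1 had 183 and 176 TPM, in replicates 2 and 1. Of 6 genes chosen to mark the suprachiasmatic nucleus, the transcription factor Six6 and the neuropeptide Nms had 0 counts in both libraries, Lhx1 had 3 and 1 counts and Prok2 12 and 14 counts, in replicates 2 and 1. The other genes of that list were present: Avp had 9.76 and 4.59 TPM, and Rgs16 had 4.69 and 4.94 TPM.

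RefSeq promoter windows on GRCm38.p6, reaching from 250 bases before an annotated start to 50 bases after it, were available for 9 of the 10 genes, in 11 windows. They are the C57BL/6J sequence, whereas the mice also carry a CAST/EiJ copy. The windows below are shown because they hold the motifs through which the clock loops act, or because they lie at starts that the Per1 transcripts differ in. Capitals mark E-boxes (CACGTG, read by CLOCK and BMAL1), E-prime boxes (CACGTT, or AACGTG on the other strand), D-boxes (TTATGTAA or TTACGTAA, read by DBP and its relatives) and half-sites of the ROR and REV-ERB receptors (AGGTCA, or TGACCT on the other strand). All motifs were searched on both strands, and each sequence is written 5′ to 3′ on the strand of its gene.
Ciart, chr3:95882179-95882478, minus strand: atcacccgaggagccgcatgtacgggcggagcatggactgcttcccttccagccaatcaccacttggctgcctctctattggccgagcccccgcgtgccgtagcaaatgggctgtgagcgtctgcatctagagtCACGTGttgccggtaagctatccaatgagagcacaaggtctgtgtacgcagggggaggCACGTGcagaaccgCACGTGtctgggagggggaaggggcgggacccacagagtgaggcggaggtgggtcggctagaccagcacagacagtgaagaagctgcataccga
Cry1, chr10:85185005-85185304, minus strand: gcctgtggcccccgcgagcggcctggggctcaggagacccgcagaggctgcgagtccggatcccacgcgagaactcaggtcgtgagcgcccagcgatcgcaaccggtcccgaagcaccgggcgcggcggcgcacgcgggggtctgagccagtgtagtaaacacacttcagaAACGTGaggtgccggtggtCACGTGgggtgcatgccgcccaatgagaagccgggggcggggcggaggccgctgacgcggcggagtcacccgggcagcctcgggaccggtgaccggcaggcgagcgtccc
Per1 at the start of its leading transcript, chr11:69098699-69098998, plus strand: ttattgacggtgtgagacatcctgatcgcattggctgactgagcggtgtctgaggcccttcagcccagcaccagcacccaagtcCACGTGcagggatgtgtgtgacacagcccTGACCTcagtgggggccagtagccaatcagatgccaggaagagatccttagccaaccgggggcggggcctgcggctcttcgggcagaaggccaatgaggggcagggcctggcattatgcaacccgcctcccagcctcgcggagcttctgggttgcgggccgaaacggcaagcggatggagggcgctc
Per1 at a second start further downstream, chr11:69099902-69100201, plus strand: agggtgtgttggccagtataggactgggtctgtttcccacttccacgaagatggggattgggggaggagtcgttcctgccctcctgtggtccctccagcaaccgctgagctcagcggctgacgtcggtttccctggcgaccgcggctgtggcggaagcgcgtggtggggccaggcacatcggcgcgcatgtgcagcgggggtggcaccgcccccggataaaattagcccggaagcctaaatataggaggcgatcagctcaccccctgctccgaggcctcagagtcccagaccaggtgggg
Per3, chr4:151044616-151044915, minus strand: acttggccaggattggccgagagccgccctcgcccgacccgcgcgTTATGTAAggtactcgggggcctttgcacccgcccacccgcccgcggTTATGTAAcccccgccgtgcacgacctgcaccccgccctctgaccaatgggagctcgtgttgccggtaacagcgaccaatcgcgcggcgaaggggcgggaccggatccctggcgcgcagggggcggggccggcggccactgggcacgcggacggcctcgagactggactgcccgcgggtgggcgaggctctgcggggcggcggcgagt

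Ciart held 3 E-boxes, whose first bases lay 116, 58 and 44 bases before the start. Cry1 held an E-box 60 bases and an E-prime box 79 bases before its start, and the first Per1 window held an E-box 166 bases and a half-site 137 bases before its start. None of the motifs was found in the second Per1 window. In Per3 the 2 matches were both D-boxes of the letters TTATGTAA, at 205 and 158 bases before the start. Over the windows of the clock genes, 3 of 11 held the E-box, against 7.15% of 32851 windows of all genes, and 3 of 11 held the E-prime box, against 4.68%. The D-box was in 1 of 11, against 1.06%, the half-site in 3 of 11, against 16.3%, and the cyclic AMP response element TGACGTCA in 0 of 11, against 1.79%. The remaining matches were E-prime boxes of Cry2 and Nr1d1, a half-site of Nr1d2 at 77 bases before the start, and a half-site in 1 of 2 overlapping Arntl windows. A match describes letters in a window and is no measurement of binding.

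All 10 clock genes were expressed in both libraries, over a range of mean TPM from 84.3 for Per1 to 7.23 for Ciart. In falling order of mean TPM the genes were Per1, Cry2, Nr1d1, Nr1d2, Dbp, Arntl, Per2, Per3, Cry1 and Ciart. The ranges of the 2 libraries did not overlap between Per1 and Cry2, Cry2 and Nr1d1, Nr1d1 and Nr1d2, Per2 and Per3, or Cry1 and Ciart. They overlapped for the other neighbours, Nr1d2 and Dbp, Dbp and Arntl, Arntl and Per2, and Per3 and Cry1, so these places in the order lay within the spread. The read-based tables gave the same order. Among genes that reached 1 TPM in both libraries, Per1 stood above 91.7%, Cry2 above 86.9% and Ciart above 34.7%.

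**Figure D1:**
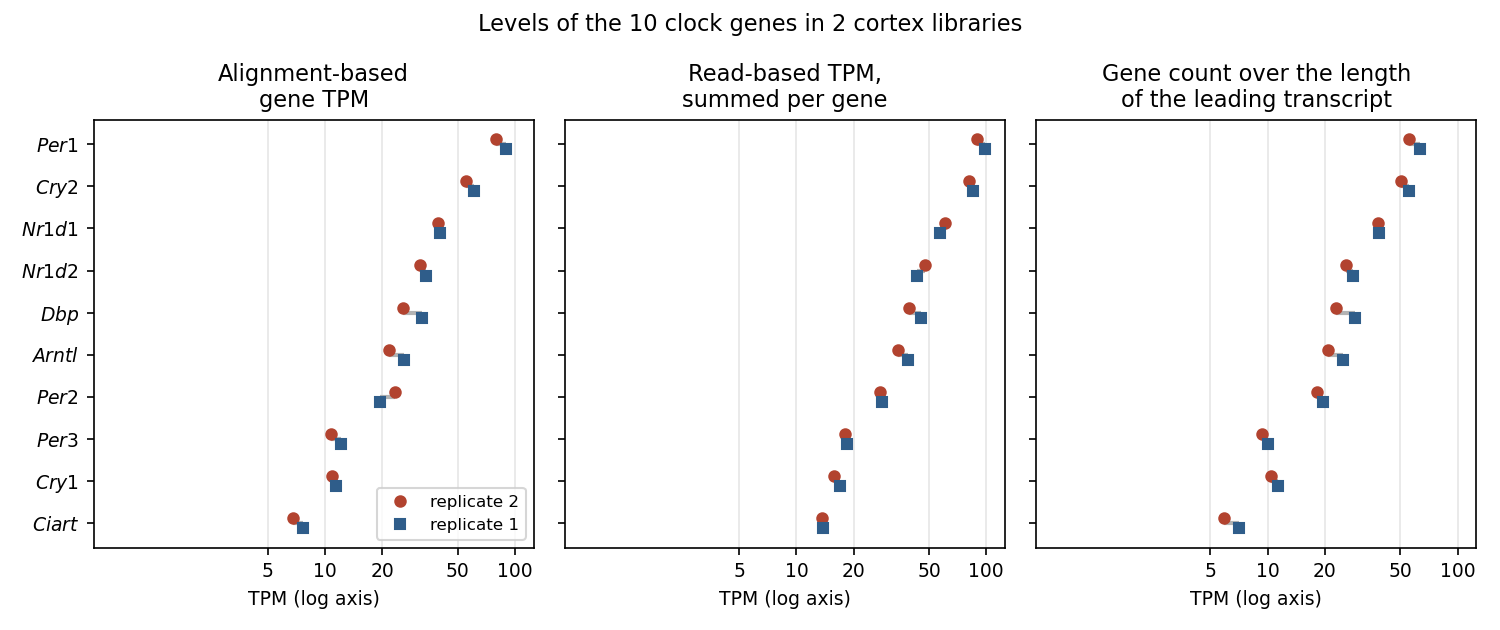
Levels of the 10 clock genes in TPM on a log axis, with circles for replicate 2, squares for replicate 1 and a line joining them, from the alignment-based tables, from the read-based tables and from gene counts set over the length of the leading transcript alone. Per1 is highest and Ciart lowest in each panel, and the read-based levels lie to the right of the alignment-based ones for every gene.

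The Per genes encode the PERIOD proteins, the partners of the cryptochromes in the repressor complex. Per1 (ENSMUSG00000020893.17, chr11:69095217-69109960, plus strand) is also known to be induced by light, neuronal activity and glucocorticoids. It had 79 TPM in replicate 2 and 89.5 TPM in replicate 1, a mean of 84.3 ± 7.43 TPM (SD, n = 2). Replicate 2 was the lower of the libraries for Per1, also in counts, with 5582 in replicate 2 and 5964 in replicate 1. Per2 (chr1:91415982-91459324, minus strand), whose loss shortens or abolishes rhythms in mice, had 23.4 TPM in replicate 2 and 19.5 TPM in replicate 1 (21.4 ± 2.7 TPM, SD, n = 2). It was the only one of the 10 genes with a higher alignment-based TPM in replicate 2, while its counts were near equal, 2284 in replicate 2 and 2280 in replicate 1. Per3 (chr4:151003652-151044665, minus strand), the member that mouse rhythms need least, had 10.7 TPM in replicate 2 and 12.1 TPM in replicate 1 (11.4 ± 0.997 TPM, SD, n = 2). Its counts were 1210 in replicate 2 and 1206 in replicate 1. Summed over the 3 genes the Per family had 113 TPM in replicate 2 and 121 TPM in replicate 1, of which Per1 made up 69.9% and 73.9%. These shares use the deposited TPM, which include the short models of Per1 and Per2 described below.

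The annotated transcripts of Per1 start at several places, and the quantifications divided the gene differently among them. The leading transcript, Per1-201 (4671 bases), held 57.9% ± 0.867 of the gene's TPM in the alignment-based tables and 51% ± 12.6 in the read-based ones (SD, n = 2). Per1-204 is a short protein-coding model of 496 bases that starts 1204 bases downstream of Per1-201, exactly where the second RefSeq window has its start, and 452 of its bases lie in exons of Per1-201. In the alignment-based tables its share of TPM was 28.2% in replicate 2 and 27.5% in replicate 1, from only 194 and 200 counts, which are 3.47% and 3.35% of the gene's counts. In the read-based tables Per1-204 was at 0, and Per1-206, a model of 4636 bases that starts 1210 bases downstream, held 35.6% in replicate 2 and 18.6% in replicate 1. The same Per1-206 had 2.45 and 0 counts in the alignment-based tables. Taken by start, the pair at the second start therefore held 28.3% and 27.5% of TPM in the alignment-based tables, and 35.6% and 18.6% in the read-based tables, in replicates 2 and 1. In counts the pair held 3.52% and 3.35% of the gene in the alignment-based tables, and 37.7% and 19.7% in the read-based tables. The quantifications thus differed on the weight of this start, and rested on different models for it. Per1-202, which starts 3731 bases upstream of Per1-201 and ends in an earlier exon, was found by both quantifications, with 13.3% and 12.3% in the alignment-based tables and 18.8% and 15.6% in the read-based tables. Per1-201 and Per1-206 have 23 exons each, and only 38 bases of Per1-206 lie outside the exons of Per1-201. For Per1-204 this number is 44, so few bases can tell either model apart from Per1-201.

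Per2 was carried by 1 full-length transcript, and its difference in TPM lay in a fragment. Per2-201 (5833 bases) had 18.1 TPM in replicate 2 and 19.4 TPM in replicate 1. Per2-202, a processed transcript of 231 bases of which 208 lie in exons of Per2-201, had 5.28 TPM in replicate 2 and 0.08 TPM in replicate 1, resting on 15.2 and 0.21 counts. It made up 22.6% of the Per2 TPM in replicate 2 and 0.41% in replicate 1, and was at 0 in both read-based tables. Set over the length of Per2-201 alone, the gene counts gave 18.2 TPM in replicate 2 and 19.5 TPM in replicate 1, without the higher value in replicate 2. For Per1 this calculation gave 55.8 TPM (replicate 2) and 63.8 TPM (replicate 1), so that the deposited mean of Per1 was 1.41 times this one, the highest such ratio among the 10 genes, against 1.02 times for Cry1, the lowest.

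**Figure D2:**
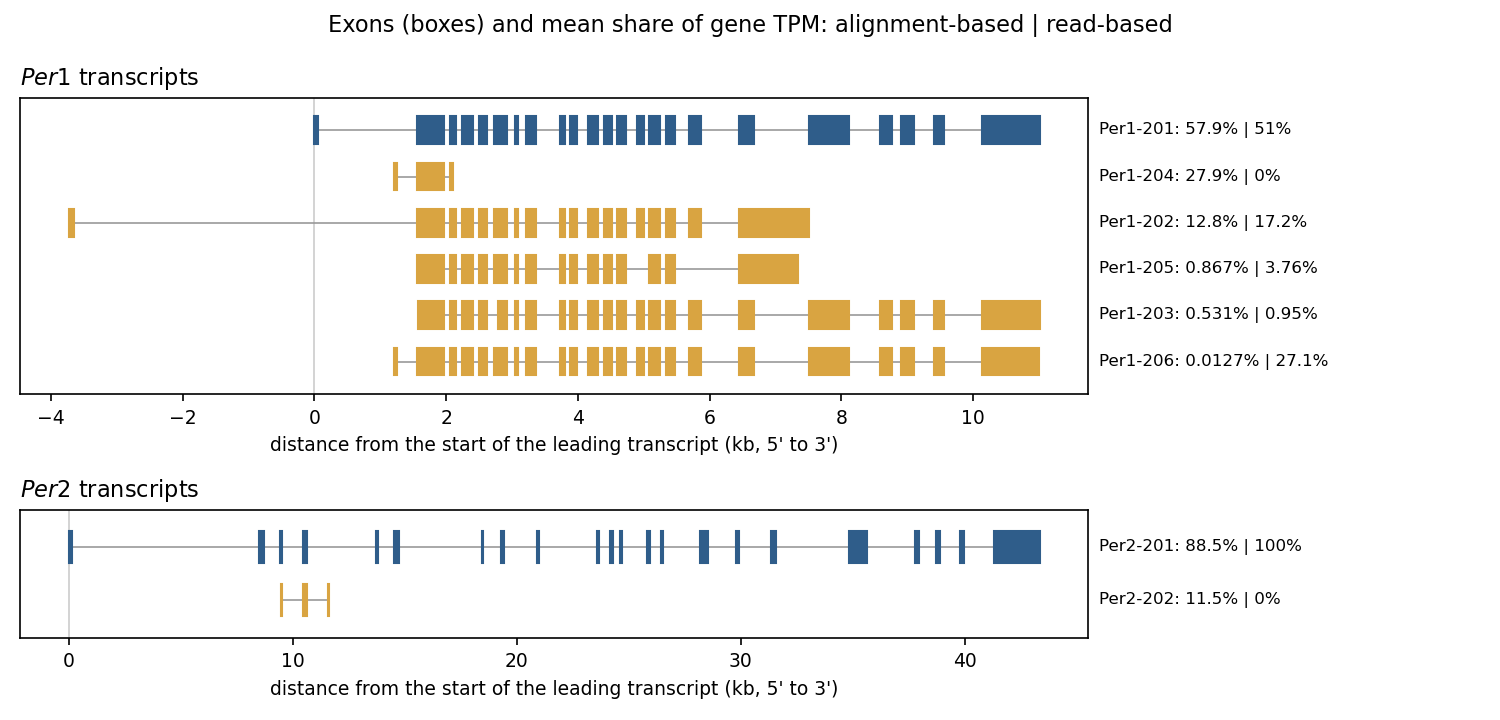
Exons (boxes) of the annotated transcripts of Per1 and Per2, placed by distance in kb from the start of the leading transcript and read 5′ to 3′, with the leading transcript in blue and the mean share of gene TPM (alignment-based, then read-based) at the right. Per1-204 and Per2-202 are short models inside the leading transcripts that hold 27.9% and 11.5% of TPM in the alignment-based tables and 0% in the read-based ones.

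Per3 had the largest share in transcripts annotated as something other than protein-coding. Per3-201 (5999 bases) held 62.3% ± 8.36 of TPM in the alignment-based tables and 59.2% ± 3.66 in the read-based tables (SD, n = 2). Transcripts annotated as retained introns, Per3-202 and Per3-205, summed to 27.3% in replicate 2 and 28.5% in replicate 1, and to 27.5% and 26% in the read-based tables. This share was close in all 4 tables, but the 2 quantifications use the same reads of each library. Of the 2139 bases of Per3-202, 1919 lie in exons of Per3-201, as do 1850 of the 4909 bases of Per3-205. Much of this share thus rests on bases that the coding transcript also holds. Per3-203, annotated as a target of nonsense-mediated decay, had 43.5 counts in replicate 2 and 88.9 counts in replicate 1, and 125 and 197 counts in the read-based tables. Both quantifications had fewer of its counts in replicate 2. The Per3 locus overlaps that of Camta1 on the same strand, and the genes share no exonic base.

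The cryptochromes Cry1 and Cry2 are the main repressors of the CLOCK and BMAL1 heterodimer, and Cry2 was the more abundant of the pair in cortex. Cry1 (chr10:85131700-85185064, minus strand), which lengthens the period in mice when present without Cry2, had 10.9 TPM in replicate 2 and 11.4 TPM in replicate 1 (11.1 ± 0.311 TPM, SD, n = 2). Cry2 (chr2:92403646-92434043, minus strand) had 55.1 TPM in replicate 2 and 60.7 TPM in replicate 1 (57.9 ± 3.94 TPM, SD, n = 2). The Cry1 share of the summed Cry TPM was 16.5% in replicate 2 and 15.8% in replicate 1, so the pair kept nearly the same proportion in both libraries. Both genes were made up mostly of 1 transcript: Cry1-201 held 97.3% ± 3.81 and Cry2-201 held 84.1% ± 1.6 of TPM (SD, n = 2). In the read-based tables these shares were 98.9% ± 1.52 and 85.2% ± 2.36. The exons of Cry2 overlap an opposite-strand transcript, D930015M05Rik, by 295 bases, and that transcript had 0 counts in both libraries.

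Arntl encodes BMAL1, the partner without which mice lose behavioural rhythms. Arntl (chr7:113207465-113314126, plus strand) had 21.6 TPM in replicate 2 and 25.9 TPM in replicate 1 (23.7 ± 3.09 TPM, SD, n = 2), with 1288 and 1432 counts. Replicate 2 was lower by both values. Arntl-201 (2908 bases) held 81.1% ± 1.46 of TPM in the alignment-based tables and 70.2% ± 4.46 in the read-based tables (SD, n = 2). Arntl-206, a protein-coding model that starts 27158 bases downstream, had 0 counts in replicate 2 in both quantifications, and in replicate 1 held 5.13% of TPM in the alignment-based and 10.8% in the read-based table. Only 22 of the 2464 bases of Arntl-206 lie outside the exons of Arntl-201, so few reads can tell these models apart. Annotated retained introns of Arntl held 15.2% in replicate 2 and 14.1% in replicate 1, and 15.3% and 13.2% in the read-based tables. One of these, Arntl-202, is a single exon of 3995 bases that lies wholly outside the exons of Arntl-201, so its reads are not shared with the mature form. It had 142 counts in replicate 2 and 137 counts in replicate 1, and 159 and 138 in the read-based tables. Total RNA also holds unspliced precursor RNA, and reads of it within this model were not told apart from a retained intron. The same limit applies to the retained-intron models of the other clock genes.

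Nr1d1 and Nr1d2 encode REV-ERBα and REV-ERBβ, heme-binding receptors that repress Arntl and other targets. Nr1d1 (chr11:98767932-98775333, minus strand) had 39.3 TPM in replicate 2 and 40.1 TPM in replicate 1 (39.7 ± 0.587 TPM, SD, n = 2). In alignment-based TPM this was the smallest spread of the 10 genes, at 1.48% of the mean. It was not the smallest in read-based TPM, where Nr1d1 had 58.8 ± 2.12 and Ciart 13.8 ± 0.0921 (SD, n = 2). Nr1d2 (chr14:18204054-18239127, minus strand) had 31.7 TPM in replicate 2 and 34 TPM in replicate 1 (32.9 ± 1.63 TPM, SD, n = 2). The receptors were thus present at similar levels, with Nr1d1 at 55.3% of their sum in replicate 2 and 54.1% in replicate 1. Nr1d1-201 held 95.4% ± 0.442 of TPM, and Nr1d2-201 held 74.9% ± 0.228 (SD, n = 2). The rest of Nr1d2 lay mostly in the retained-intron models Nr1d2-202 and Nr1d2-203, which summed to 22.4% in replicate 2 and 24.9% in replicate 1, and to 21.5% and 19.3% in the read-based tables. Of the 1680 bases of Nr1d2-202, 1342 lie in exons of Nr1d2-201. Nr1d1 is arranged tail to tail with the thyroid hormone receptor gene Thra on the opposite strand, and 263 of its exonic bases (8.55%) lie in exons of Thra, which had 328 TPM in both libraries. Whether the counting used strand is not given in the sources used here, so reads from the shared bases are uncertain in Nr1d1. A processed pseudogene, AC170187.1, matches Nr1d2 at 96.1% over 1385 bases and had 8 counts in each library.

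Dbp encodes an activator of the PAR bZIP family that carries the clock's rhythm to its targets through D-boxes. Dbp (chr7:45705088-45710203, plus strand) had 25.8 TPM in replicate 2 and 32.3 TPM in replicate 1 (29.1 ± 4.61 TPM, SD, n = 2), with 872 and 1030 counts. Its SD of 15.9% of the mean was the largest of the 10 genes. Dbp-201 (1837 bases) held 64.1% ± 1.38 of TPM, and 79.8% ± 2.1 in the read-based tables (SD, n = 2). Shorter protein-coding models whose every base lies in exons of Dbp-201 were split differently in the alignment-based tables: Dbp-203 had 144 counts in replicate 2 and 50.4 in replicate 1, and Dbp-204 had 0 in replicate 2 and 134 in replicate 1. In the read-based tables Dbp-203 was at 0 and Dbp-204 had 0 counts in replicate 2 and 19.7 in replicate 1, so the division among these models was not stable between quantifications. The retained-intron models Dbp-202 and Dbp-205 summed to 14.8% in replicate 2 and 9.09% in replicate 1, and to 21.7% and 15.4% in the read-based tables. Of their 815 and 1732 bases, 444 and 576 lie in exons of Dbp-201. Exons of Dbp overlap those of the opposite-strand gene Sphk2 by 539 bases (18%). Sphk2 had 14.7 TPM in replicate 2 and 15.7 TPM in replicate 1, so the same limit on shared reads applies to Dbp.

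Ciart, which encodes the repressor CHRONO of the CLOCK and BMAL1 heterodimer, was the lowest of the 10 genes. Ciart (chr3:95878503-95882251, minus strand) had 6.79 TPM in replicate 2 and 7.68 TPM in replicate 1 (7.23 ± 0.629 TPM, SD, n = 2), from 167 and 187 counts. These were the lowest counts of the 10 genes. Ciart-201 (1398 bases) held 58.8% ± 1.98 of TPM in the alignment-based tables but 31.5% ± 3.04 in the read-based tables (SD, n = 2). Ciart-202, a protein-coding model of 1939 bases, held 13.2% ± 2.19 and 26.3% ± 3.98. The models under 1 kb, chiefly Ciart-204, Ciart-205 and Ciart-206, summed to 30.9% in replicate 2 and 25% in replicate 1, and to 47.1% and 37.2% in the read-based tables. Ciart was the only one of the 10 genes whose leading transcript had a mean share below 50% in the read-based tables. A processed pseudogene, Gm9176, matches it at 96.7% over 1126 bases and had 0 counts in replicate 2 and 1 in replicate 1.

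**Figure D3:**
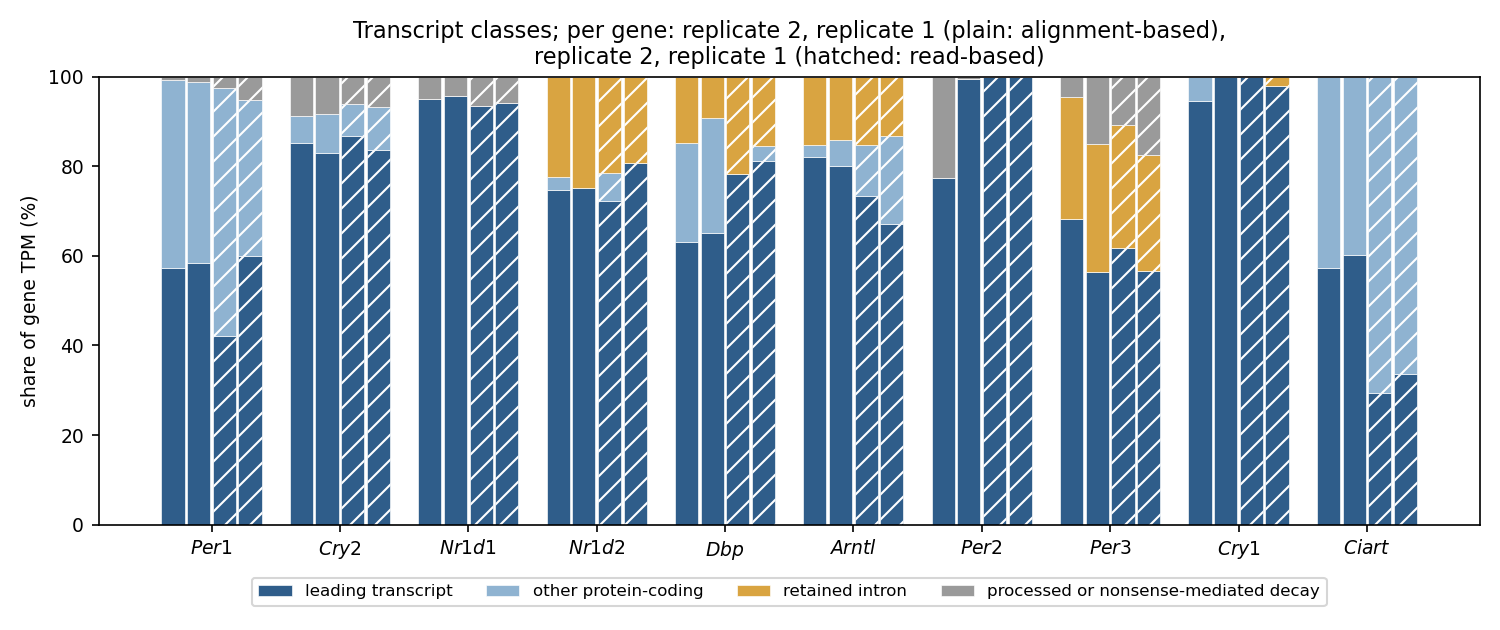
Share of each gene's TPM in its leading transcript, other protein-coding transcripts, retained introns and other annotated noncoding classes, with 4 bars per gene (replicate 2 then replicate 1, plain for alignment-based and hatched for read-based tables). Cry1 and Nr1d1 are nearly all leading transcript, Per3, Nr1d2, Arntl and Dbp carry retained-intron models in every bar, and Per1 and Ciart are divided among protein-coding models.

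Ratios between the libraries were taken from gene counts scaled over all genes, since TPM moved with the choice of transcript. The ratio is itself the spread between the replicates and has no second group to be read against. Of 18562 genes averaging 10 counts or more, 0.151% had an exact 95% interval wholly beyond 2-fold lower in replicate 2 and 0.156% wholly beyond 2-fold higher. None of the 10 clock genes did. Intervals here cover counting error only and hold no term for variation between libraries. Amplified reads that lack molecular barcodes cannot be taken as separate molecules, so the intervals may be too narrow even for counting error. The interval lay wholly below equality for 3 of the 10 clock genes, against 6.89% of all genes tested, and wholly above it for 0 of 10, against 8.17%. All 10 clock genes averaged 100 counts or more, and among the 12843 genes that did so these backgrounds were 8.06% lower and 10.1% higher in replicate 2. In tissue RNA, fewer cells of a type and less RNA per cell cannot be told apart.

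The 3 genes were Dbp, Arntl and Per1, each with fewer scaled counts in replicate 2. For Dbp the log2 ratio (replicate 2 over replicate 1) was -0.26 (95% interval -0.39 to -0.13), a fold of 0.834. It was -0.17 for Arntl (-0.28 to -0.06), a fold of 0.886, and -0.12 for Per1 (-0.17 to -0.06), a fold of 0.922. Of genes averaging 100 counts or more, 6% had a ratio in either direction as large as that of Dbp, 13.6% as large as that of Arntl and 26% as large as that of Per1. Ciart had a log2 ratio of -0.18 with a wide interval of -0.49 to 0.12. The other 6 genes lay within 0.06 of equality: Cry1 at -0.06, Cry2 at -0.05, Nr1d2 at -0.04, Per2 and Per3 at -0.02 each, and Nr1d1 at 0.04. Of the 10 log2 ratios 9 were below 0 and 1 above, with a median of -0.05, while the median was -0.00 over all genes tested and 0.00 over those averaging 100 counts or more.

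The 3 measures of the ratio gave the same side of 1 for 7 of the genes. The TPM ratios carry no scaling between the libraries. Over genes averaging 100 counts or more, the median TPM was 16.8 in replicate 2 and 17.9 in replicate 1. A TPM ratio of 1 is therefore not the same as equal scaled counts. Dbp was lower in replicate 2 by each, with ratios of 0.834 in scaled counts, 0.798 in alignment-based TPM and 0.868 in read-based TPM. For Per2 the alignment-based TPM gave 1.2, against 0.987 in scaled counts and 0.976 in read-based TPM. Nr1d1 and Nr1d2 also fell on both sides of 1: Nr1d1 had 1.03, 0.979 and 1.05, and Nr1d2 had 0.972, 0.932 and 1.09, in the same order of measures. In TPM rescaled to nuclear protein-coding genes Cry1 had 24.8 in replicate 2 and 24.3 in replicate 1, so its side also depended on the scale. No direction is given for Per2, Nr1d1, Nr1d2 or Cry1.

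**Figure D4:**
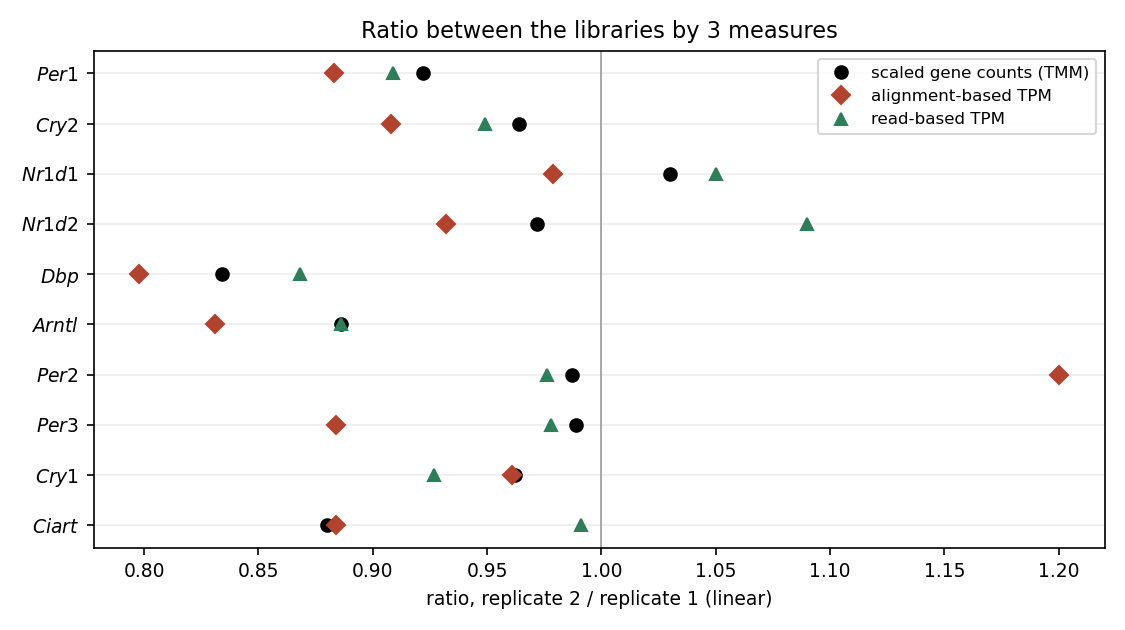
Ratio of replicate 2 over replicate 1 on a linear axis for each clock gene by scaled gene counts (circles), alignment-based TPM (diamonds) and read-based TPM (triangles), with a line at a ratio of 1. Per2 stands out at 1.2 in alignment-based TPM alone, and the points of Dbp, Arntl and Per1 all lie below 1.

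The other genes of the clock were taken as a list of 20: partners and paralogues of the activators, ROR receptors, further repressors, PAR bZIP factors and the kinases and ligases that act on PER and CRY proteins. All 20 averaged 10 counts or more, 9 had a log2 ratio below 0 and 11 above, and their median was 0.01. The interval lay below equality for 3 of 20, against 6.89% of all genes tested, and above it for 0, against 8.17%. The 3 were Bhlhe40 (-0.10), Rorb (-0.09) and Btrc (-0.08, interval -0.16 to -0.00), and in the read-based counts they were 2. Of genes averaging 100 counts or more, 31.3% had a ratio as large as that of Bhlhe40, 37.7% as that of Rorb and 39.7% as that of Btrc. Highest in level was the PAR bZIP factor Tef, with 97.3 TPM in replicate 2 and 103 TPM in replicate 1. Bhlhe40, a repressor that competes for E-boxes, had 68 TPM in replicate 2 and 80.6 TPM in replicate 1, and Csnk1e, a kinase that phosphorylates PER proteins, had 68 and 67.6 TPM. Tef thus had a higher mean TPM than any of the 10 clock genes described above. Toward the low end Timeless, best known from replication forks in mammals, had 3.5 TPM in replicate 2 and 2.31 TPM in replicate 1. Among those of the 20 that averaged 100 counts or more, the ratios farthest from equality were those of Timeless (0.27, interval -0.07 to 0.62), the Arntl paralogue Arntl2 (0.23, -0.11 to 0.58) and Fbxl21, a ligase subunit for CRY proteins (-0.21, -0.57 to 0.15). Each of these intervals spans equality. Clock itself, the partner of BMAL1, had 24.2 TPM in replicate 2 and 24.9 TPM in replicate 1, and its relative Npas2 had 28.1 and 28.6 TPM, near the 21.6 and 25.9 TPM of Arntl.

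Genes induced by neuronal activity were lower in the same library as Per1, Arntl and Dbp. All 12 of a list of such genes had log2 ratios below 0, with a median of -0.23 and a range of -0.46 to -0.02. Intervals lay below equality for 9 of the 12, against 8.06% of all genes averaging 100 counts or more. Fos, an immediate early transcription factor, had 38 TPM in replicate 2 and 54 TPM in replicate 1, a log2 ratio of -0.46 (-0.56 to -0.36). Junb (-0.32) and the neuronal factor Npas4 (-0.27) were next. The 12 genes known to answer to glucocorticoids did not share that direction: 5 had log2 ratios below 0 and 7 above, with a median of 0.03. Of these, 3 had intervals above equality, namely Zbtb16 (0.31), Tsc22d3 (0.18) and Ddit4 (0.16), against 10.1% of genes averaging 100 counts or more. Sult1a1 was lowest of that list at -0.29 with an interval of -0.65 to 0.07. The part of activity-induced genes in the ratios of Per1, Arntl and Dbp was not tested.

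**Figure D5:**
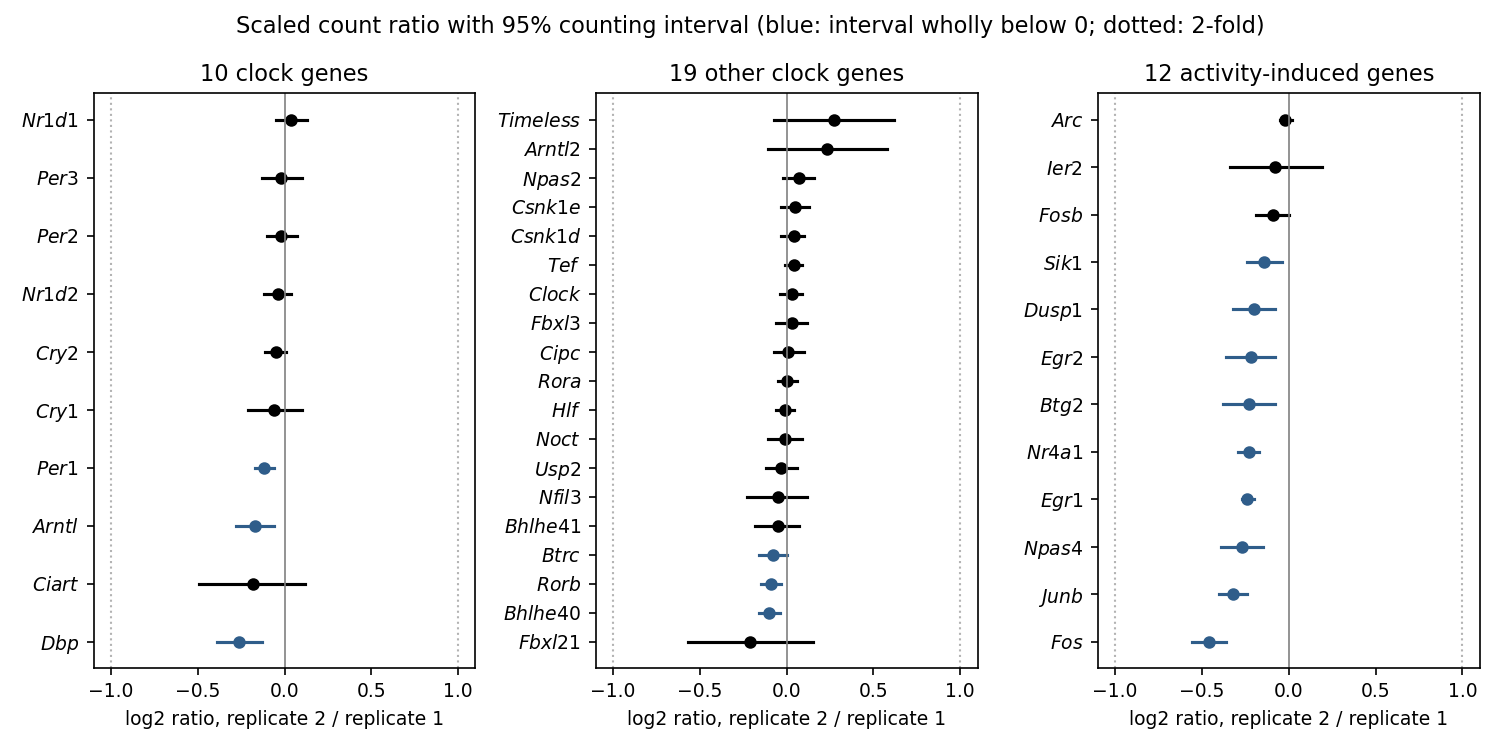
Log2 ratio of scaled counts, replicate 2 over replicate 1, with exact 95% counting intervals, for the 10 clock genes, 19 of the 20 other clock genes and the 12 activity-induced genes, blue where the interval lies wholly below 0. The clock genes lie between -0.26 and 0.04, and all 12 activity-induced genes lie below 0.

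Markers of some other cells differed between the libraries. The 3 oligodendrocyte genes had a median log2 ratio of 0.19 with 2 intervals above equality, and the 4 astrocyte genes a median of 0.07 with 2 above. Of the 5 genes of excitatory neurons, 2 had intervals above and 1 below equality, with a median of 0.01. Among all genes averaging 100 counts or more, 10.1% had intervals above equality and 8.06% below. Intervals are narrow at high counts: that of the astrocyte gene Slc1a2, averaging 131300 counts, left out equality at a log2 ratio of 0.07. No interval left out equality among the 3 genes each of inhibitory neurons (median -0.01), microglia (0.00) and endothelium (0.07). Choroid plexus genes had a summed level of 37.7 TPM (replicate 2) and 8.87 TPM (replicate 1), of which the carrier protein gene Ttr had 34.3 and 6.12 TPM. Only Ttr of that list had an interval that left out equality. The log2 ratio was 0.27 for Kl (-0.03 to 0.58) and 0.24 for Clic6 (-0.22 to 0.70), and Folr1 had 9 and 3 counts. Of the suprachiasmatic nucleus list, the neuropeptide gene Avp, which other hypothalamic neurons also express, had 102 counts in replicate 2 and 45 counts in replicate 1, a log2 ratio of 1.15 (0.64 to 1.70). The 6 genes of that list had a summed level of 14.9 TPM (replicate 2) and 10.2 TPM (replicate 1), most of it in Avp and Rgs16. The part of these markers in the ratios of the clock genes was not tested.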

How the data were processed

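Total RNA of 2 cortex libraries was measured by RNA-seq with ERCC spike-ins of a profile meant for stranded libraries, per the labels. Expected counts and TPM of genes and transcripts, from alignments to the transcriptome, were deposited by the authors, and so were estimated counts and TPM per transcript from the reads without those alignments. The file lists deposited beside the tables name assembly mm10 and annotation GENCODE M21. Which aligner and quantifier were run is not given in the sources used here. Reads of CAST/EiJ alleles were assigned against an annotation of the C57BL/6J genome.

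Expected counts were rounded and scaled by TMM (edgeR 4.0.16, R 4.3.3) over 18562 annotated genes that averaged 10 counts or more. Log2 ratios used a prior count of 0.5 and exact Clopper-Pearson 95% intervals. With 1 group of 2 libraries no test was made. Transcript shares are percentages of the summed deposited TPM of a gene, and the percent values are computed here. Near copies were found with blastn 2.17.0. Scripts were checked on simulated counts.

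Alternatives were DESeq2 1.42.0 size factors, total and spike-in scaling, no filter, a prior count of 5, read-based tables, rescaled TPM and each library alone. The clock genes and all lists were chosen with earlier results of these data known. All 10 clock genes are named, with transcripts of at least 10% of TPM in any table. Of the other clock genes, the 3 highest and 2 lowest by TPM and the 3 of largest ratio are named, except 1 that is not reported here, and of context lists up to 3. Further genes with values beyond this rule (Clock, Npas2, Rorb, Btrc, Ddit4 and the cell type markers) were named after their values were seen. With 2 libraries, likeness of pattern to other genes was not computed.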

Additional observations from a re-analysis of the deposited data

How the results depend on the processing

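No clock gene changed the side of its log2 ratio under any scaling, filter, prior count or read-based count tried. The 10 ratios kept their call in 59 of 60 recomputations, and in 1, total expected counts, the interval of Cry2 (-0.08) also fell below equality, so that 4 rather than 3 genes were lower in replicate 2. The median ratio lay between -0.05 and -0.08. The median level of the 10 genes, 26.9 TPM, was 24.6 in replicate 2 alone and 29.1 in replicate 1 alone. It was 39 in the read-based tables, where the cause was not tested, 59 once TPM were rescaled to nuclear protein-coding genes, which sets them over a smaller total, and 24.2 over the length of the leading transcript, an alternative chosen after seeing the data. By its mean share, the leading transcript held at least 50% of TPM in 10 genes, and in 9 in the read-based tables. In the latter Per1-201 held 42.1% in replicate 2 and 59.9% in replicate 1, so Per1 lay on both sides of that threshold. A ratio of 2 libraries cannot be computed without either one. No paired analysis was possible because there is 1 group and its 2 libraries have no counterpart that shares a number. Counting error limits Ciart most, and the division of reads among overlapping transcript models limits the levels in TPM, with deposited means at 1.02 (Cry1) to 1.41 times (Per1) the value over the leading transcript.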
